A study of Mus musculus with 2 samples.

Results

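In mammary organoids kept with doxycycline, 2001 distal chromatin regions had at most 0.25 times the accessibility they had in the ethanol control. These regions were chosen by their measured ratio. The peaks on chromosomes 1 to 19 of the 2 libraries gave 268016 merged regions, and 170665 of them contained peaks called in both. Of these, 137290 had a midpoint 1 to 200 kb from the nearest protein-coding transcription start site (TSS) and at least 200 counts over both libraries. The counts of each library were scaled to its total in the regions with a peak of both, and 2001 of the 137290 regions tested (1.46%) had a ratio of DOX over EtOH of at most 0.25. The ratio is therefore a description of how the regions were picked and not a finding, and all measures taken from the same counts are given in the same way.

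The organoids came from adult C57BL/6J mice with the genotype shTRPS1.34 ki/+; CAG-rtTA3 tg/+, which both groups share by the labels, although a legend in the study's supplement names wild-type mice for this experiment. Elsewhere the study departs from this legend. Both its results section and its procedure for this assay describe organoids from animals of an shRNA line against Trps1. If the legend were right, no shRNA would have been present, and accessibility cannot settle this. The genotype of the labels carries 1 inducible shRNA against Trps1, placed in the Col1a1 locus. It also carries a transactivator driven by the ubiquitous CAG promoter, which does not switch on the shRNA in every cell. The DOX group received doxycycline at 0.1 µg/ml and the EtOH group received ethanol, each for 7 days, before single-cell ATAC-seq, an assay that cuts accessible DNA with a transposase and counts the cuts per nucleus. Each group has 1 library made from mixed cells of several mice (4 by the series' design text, a smaller number by the methods), so no difference could be tested against replicates. The shRNA and doxycycline itself cannot be told apart, since no group received doxycycline without the shRNA. The DOX library held 3071 nuclei and 224762118 counts, and the EtOH library held 3104 nuclei and 211963715 counts, with 23 barcodes present in both. All intervals are 95% intervals. Those of levels and ratios were computed from counts divided by 2, because the 2 ends of a fragment usually fall in the same region. They cover counting error only. Those of shares were computed from undivided numbers of nuclei or regions, neither of which are replicates.

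Distal regions of open chromatin include enhancers, which bind transcription factors in a cell-type-specific way and act on promoters at a distance. The mammary epithelium has an outer basal layer and an inner luminal layer with luminal progenitors and hormone-sensing cells, the latter marked by the estrogen and progesterone receptors. In hormone-sensing cells the forkhead factor FOXA1 opens chromatin that the estrogen receptor can then use. TRPS1 is a zinc-finger repressor that recognises GATA sites.

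The sequences of 7 of the 2001 regions are shown here (GRCm38, plus strand), because a forkhead motif had the highest ratio of its share in these regions to its share in all tested regions among 24 motifs searched. Capitals mark the forkhead word TGTTTAC (FOX), the AP-1 word TGACTCA and the SOX word CATTGTT on either strand, which of the motifs in at least 1% of tested regions had the highest ratios of shares. The first 3 windows are the central 200 bases of the region with the lowest ratio, near Car8 (chr4:8374882-8375081), of the region with the highest level in hormone-sensing luminal-like nuclei of EtOH, near Stc2 (chr11:31503629-31503828), and of the region with the highest level in luminal progenitor-like nuclei of EtOH, near Igfbp5 (chr1:72856715-72856914). None of these 3 windows holds one of the 3 words.
Car8 region: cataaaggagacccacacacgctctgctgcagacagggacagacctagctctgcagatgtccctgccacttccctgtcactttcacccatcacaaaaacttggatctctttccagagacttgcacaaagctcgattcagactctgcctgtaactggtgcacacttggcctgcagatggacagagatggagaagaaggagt
Stc2 region: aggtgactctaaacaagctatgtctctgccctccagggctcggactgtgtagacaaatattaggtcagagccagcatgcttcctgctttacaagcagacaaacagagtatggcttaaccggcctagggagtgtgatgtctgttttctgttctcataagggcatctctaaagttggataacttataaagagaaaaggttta
Igfbp5 region: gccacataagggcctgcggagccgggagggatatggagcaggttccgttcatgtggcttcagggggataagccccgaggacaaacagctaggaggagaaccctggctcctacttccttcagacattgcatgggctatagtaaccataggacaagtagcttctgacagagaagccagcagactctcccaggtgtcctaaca

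The other 4 windows are the central 300 bases of regions that hold a FOX word, and they were chosen after the values were seen. The regions near Pgr (chr9:8752230-8752529), the progesterone receptor gene, and near Foxa1 (chr12:57511771-57512070) are those with a FOX word among the regions nearest to hormone receptors and luminal effectors. The regions near Eef1e1 (chr13:38736384-38736683) and Uba2 (chr7:34158032-34158331) have the lowest ratios among those with both a FOX and an AP-1 word. In the Foxa1 window the SOX and FOX words overlap. Over all nuclei the Eef1e1 region had 1.03 CPM in DOX and 7.59 CPM in EtOH, and the Uba2 region 1.51 and 10.4 CPM. Here CPM are counts for each 1000000 counts of the library in regions with a peak of both. Where CPM are given for a class of nuclei, they are scaled to such counts of that class's nuclei in the library.
Pgr region: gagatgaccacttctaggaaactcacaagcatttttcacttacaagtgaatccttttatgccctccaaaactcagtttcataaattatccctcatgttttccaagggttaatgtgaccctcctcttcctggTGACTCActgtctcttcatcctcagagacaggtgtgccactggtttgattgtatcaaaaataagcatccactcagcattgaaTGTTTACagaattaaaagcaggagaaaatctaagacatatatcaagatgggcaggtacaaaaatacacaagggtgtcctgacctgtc
Foxa1 region: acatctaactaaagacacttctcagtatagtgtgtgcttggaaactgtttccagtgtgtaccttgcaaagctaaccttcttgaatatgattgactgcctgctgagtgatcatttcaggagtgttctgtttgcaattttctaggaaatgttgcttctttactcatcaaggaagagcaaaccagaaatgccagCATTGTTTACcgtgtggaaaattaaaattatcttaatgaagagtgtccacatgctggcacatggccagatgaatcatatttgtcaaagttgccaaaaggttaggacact
Eef1e1 region: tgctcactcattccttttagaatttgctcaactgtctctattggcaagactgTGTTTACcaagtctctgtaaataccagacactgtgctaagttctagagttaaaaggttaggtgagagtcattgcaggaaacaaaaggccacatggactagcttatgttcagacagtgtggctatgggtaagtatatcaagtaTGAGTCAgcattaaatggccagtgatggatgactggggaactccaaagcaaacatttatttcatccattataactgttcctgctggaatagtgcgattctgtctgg
Uba2 region: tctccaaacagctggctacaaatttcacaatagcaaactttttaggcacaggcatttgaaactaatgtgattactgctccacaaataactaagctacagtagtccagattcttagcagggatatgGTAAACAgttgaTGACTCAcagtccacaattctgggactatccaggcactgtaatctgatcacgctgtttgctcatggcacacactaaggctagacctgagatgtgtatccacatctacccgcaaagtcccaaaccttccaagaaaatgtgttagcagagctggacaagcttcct

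The 2001 regions together took 1861 CPM in DOX and 9023 CPM in EtOH, from 389353 and 1784027 counts. A single region had a median of 0.789 CPM in DOX and 3.93 CPM in EtOH. The interquartile ranges were 0.578 to 1.14 CPM and 2.82 to 5.52 CPM and did not overlap. These levels come from the counts that chose the regions. The ratio ran from 7.37% to 24.9993% of EtOH with a median of 21.4%, so most regions lay close to the threshold, and 35 of them had a log2 ratio of −3 or lower. The regions just inside were nearest to Spata46 (24.9993%), Dab1 (24.9982%) and Tra2b (24.9981%). Those just outside were nearest to Eps8 (25.0001%), Apmap (25.0014%) and Sgsm1 (25.0037%). The median log2 ratio of all tested regions was −0.16, and with this median set to 0 the threshold was met by 1226 regions.

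The lowest ratio was found 136 kb from the TSS of Car8, which encodes a carbonic anhydrase-related protein, in an intergenic region at chr4:8374529-8375434. Its level was 0.884 CPM (0.713 to 1.08) with doxycycline and 11.99 CPM (11.3 to 12.7) with ethanol, a log2 ratio of −3.76 (−4.08 to −3.46). The next regions were nearest to Tnp1, a spermatid nuclear protein gene (chr1:73156447-73157346, 0.349 against 4.62 CPM), and Il31ra, an interleukin receptor gene (chr13:112547403-112548322, within an intron, 0.296 against 3.78 CPM). The region near B3galnt1, a glycosyltransferase gene, had 0.239 CPM in DOX and 2.97 CPM in EtOH. Near Pcmtd1 the values were 0.268 and 2.81 CPM, and near Tmprss11a, a serine protease gene, they were 0.502 and 5.11 CPM. The region near Gria2, which encodes a glutamate receptor subunit, had 0.478 and 4.85 CPM, and that near Auts2 had 0.784 and 7.80 CPM. In these 8 regions the DOX and EtOH intervals lay far apart, with log2 ratios of −3.76 to −3.31.

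Among the 2001 regions, those with the most EtOH counts were nearest to Gm20481 (977 counts in DOX, 4449 in EtOH), Igfbp5 (986 and 4400), Ptpru (1085 and 4140) and Kit (629 and 3679). Igfbp5 encodes an insulin-like growth factor binding protein and Kit the receptor of stem cell factor, a marker of luminal progenitors. They were followed by Ercc2 (762 and 3584), Stc2 (730 and 3502), Slc24a2 (833 and 3408) and Ednra (678 and 3380), of which Stc2 encodes the secreted hormone stanniocalcin 2 and Ednra an endothelin receptor. Of these 8 regions, 6 were most open in luminal progenitor-like nuclei. The region near Ptpru came closest to the threshold, at 24.8% of EtOH. Outside the immune-like clusters 7 of the 8 were above the threshold, at 28.4 to 36.6% of EtOH, and that near Kit was at 24.3%, whereas the 8 regions with the lowest ratios met it in each of 7 other settings.

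Nuclei were clustered on the other regions with a peak of both libraries, without the 2001 regions, to find the nuclei that open them. Of 8 clusters, 2 carried the markers of hormone-sensing luminal cells, with 9 of 10 markers above the other nuclei in each, among them Esr1 (log2 fold of 1.11 in cluster 4 and 1.23 in cluster 5) and Foxa1 (1.05 and 1.37). In cluster 4 the basal keratin gene Krt5 was at 1.17. There 5 of 10 basal markers lay above the other nuclei, with a median of −0.03. Cluster 1 was luminal progenitor-like, with 5 of 8 markers above the other nuclei and Kit at 1.74, but its median over the list, 0.52, was just past the 0.5 needed for the name, and at a higher clustering resolution no cluster took it. Its other markers were Csn3 (1.67), Lcn2 (1.395), Aldh1a3 (0.54) and Elf5 (0.51), with Trf (−0.16), Cd14 (−0.36) and Ltf (−1.84) below the other nuclei. Of the basal markers 8 of 10 and of the fibroblast markers 4 of 5 also lay above the other nuclei in cluster 1, with medians of 0.25 and 0.30, so the name rests on a narrow margin. Clusters 3 and 6 were immune-like, with 7 of 8 markers above the other nuclei. Cluster 2 reached the mark set for a name with no marker list, cluster 7 carried both basal and fibroblast markers, and cluster 8 was shallow, so these 3 have no name here.

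The clusters were unevenly filled by the libraries. Hormone-sensing luminal-like nuclei made up 7.10% of DOX nuclei (218, 6.22 to 8.06%) and 32.0% of EtOH nuclei (992, 30.3 to 33.6%). For luminal progenitor-like nuclei the shares were 1.86% (57) and 53.3% (1654), and for immune-like nuclei 41.7% (1282) and 9.15% (284). Cluster 2 held 1359 DOX nuclei and 6 EtOH nuclei, so cluster and library cannot be told apart there. Without cluster 2, a choice made after seeing the data, 13362 regions met the rule, 1021 of them among the 2001. Over all nuclei, the 10 hormone-sensing luminal markers had a summed accessibility of 281 CPM in DOX and 384 CPM in EtOH. It was higher in EtOH for 10 of 10. That of the 8 immune markers was 327 and 134 CPM, higher in DOX for 7 of 8. The 8 luminal progenitor markers summed to 218 and 230 CPM, higher in EtOH for 5 of 8, beside class shares of 1.86% and 53.3%. In cluster 2, 6 of 8 luminal progenitor markers lay above the other nuclei, as did 8 of 10 basal and 7 of 10 hormone-sensing luminal markers. No marker of the lists summed here was at 0 in a library.

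The 2001 regions were open above all in hormone-sensing luminal-like nuclei. In EtOH these nuclei had 1.78% of their counts in the 2001 regions, against 0.471% in luminal progenitor-like nuclei, 0.382% in cluster 7 and 0.0698% in immune-like nuclei. They supplied 70.0% of all EtOH counts in the 2001 regions, and luminal progenitor-like nuclei supplied 27.1%. Of the 2001 regions, 1562 (78.1%, 76.2 to 79.9%) had their highest EtOH level in hormone-sensing luminal-like nuclei, whereas 26.6% of all tested regions did. A further 381 (19.04%, 17.3 to 20.8%) were highest in luminal progenitor-like nuclei, against 24.2% of tested regions, and 58 (2.90%) in cluster 7, against 24.6%. Immune-like nuclei led 0 of the 2001 regions and 24.7% of tested regions. The EtOH counts that set the leading class also entered the ratio. These shares therefore describe the choice of regions and are no independent support. The regions most open in immune-like nuclei of EtOH had a median log2 ratio of 1.01, those of hormone-sensing luminal-like nuclei −0.63 and those of luminal progenitor-like nuclei −0.44.

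**Figure D1:**
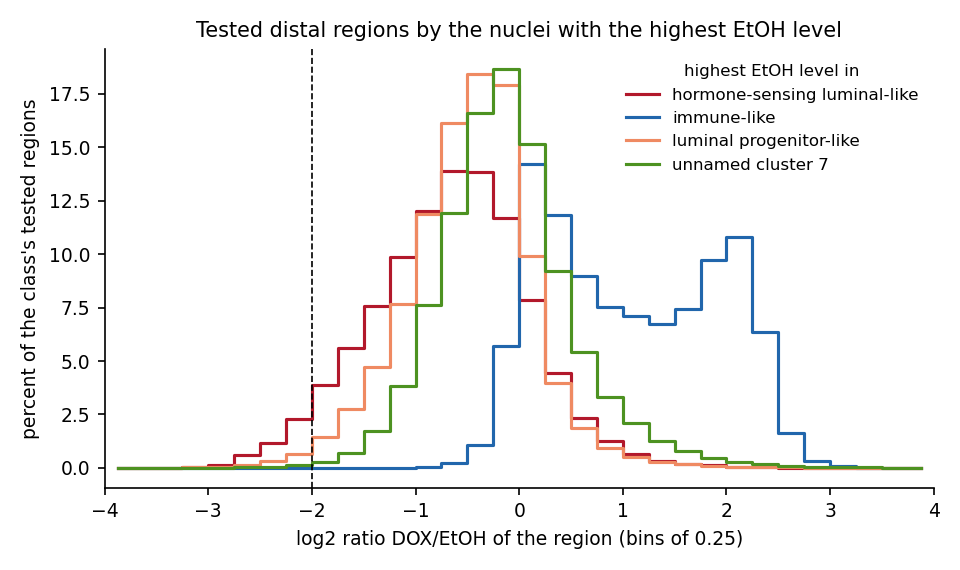
Distribution of the log2 ratio of DOX over EtOH (x axis, bins of 0.25) over the tested distal regions, drawn apart for the class of nuclei with the highest EtOH level, as a percent of that class's regions (y axis). The dashed line marks the ratio of 0.25, at or below which lie 4.28% of the regions led by hormone-sensing luminal-like nuclei, 1.15% of those led by luminal progenitor-like nuclei and 0% of those led by immune-like nuclei.

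Within a class the drop between the libraries was smaller than over all nuclei. Over all nuclei the share of counts in the 2001 regions was 0.186% in DOX and 0.902% in EtOH. In hormone-sensing luminal-like nuclei it was 0.988% in DOX and 1.78% in EtOH, a log2 ratio of −0.85, and in luminal progenitor-like nuclei it was 0.275% and 0.471%, a log2 ratio of −0.78. The 2 hormone-sensing luminal-like clusters were not alike, since cluster 4 went from 1.501% in EtOH to 0.596% in DOX and cluster 5 from 2.09% to 1.55%. The median nucleus followed, with 1.60% in EtOH and 0.551% in DOX in cluster 4, and 2.15% and 1.66% in cluster 5. Cluster 2, the largest group of DOX nuclei, had 0.162% of its counts in the 2001 regions. From sums over a whole library, fewer nuclei of a type and less open chromatin per nucleus cannot be told apart. How far the smaller number of hormone-sensing luminal-like nuclei in DOX accounts for the low ratio was not tested.

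**Figure D2:**
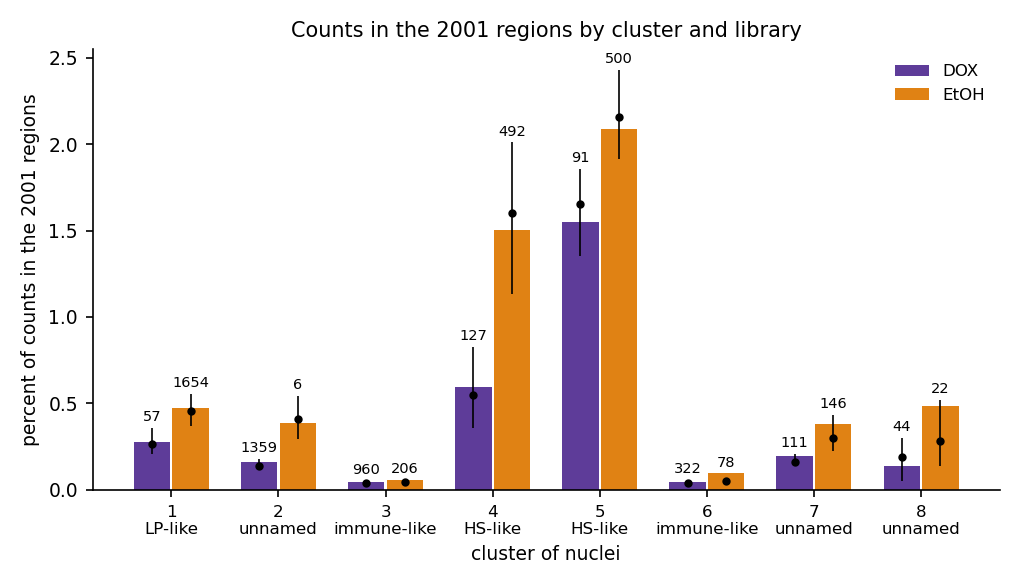
Percent of counts that fell in the 2001 regions (bars, y axis) for each cluster of nuclei (x axis) in DOX and EtOH, with the median and interquartile range of single nuclei as black points and lines and the number of nuclei above. The bars of clusters 4 and 5 stand above all others in both libraries, at 1.501% and 2.09% in EtOH.

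The value of DOX in hormone-sensing luminal-like nuclei depended on the clustering. At a higher resolution the class held 104 DOX nuclei and 1016 EtOH nuclei, with 1.48% and 1.76% of counts in the 2001 regions, and clusters made from promoter regions gave 1.27% and 1.88%. Without the tenth of nuclei with the most counts the values were 1.3999% and 1.82%. The direction was the same in each case.

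Taken region by region, 1921 of the 2001 had at least 40 counts in hormone-sensing luminal-like nuclei. In these nuclei 1903 of the 1921 were lower in DOX, with a median log2 ratio of −0.89, beside 51.1% lower and a median of −0.01 over all regions with as many counts. At or below 0.25 were 109 of the 1921, and 1.29% of all these regions. Outside the immune-like clusters all 2001 were lower in DOX, with a median log2 ratio of −1.79, beside 57.8% and −0.09 over tested regions, and 526 remained at or below 0.25, against 0.808% of tested regions. Since these nuclei are part of the libraries that chose the regions, the counts describe the choice and are no independent support. Of the 1562 regions led by hormone-sensing luminal-like nuclei, 1436 (91.9%) had an interval of their ratio in these nuclei wholly below 1 and 0 wholly above 1, beside 27.4% below and 8.28% above of all 36496 tested regions led by these nuclei. For the 381 led by luminal progenitor-like nuclei these numbers were 120 (31.5%) and 0, beside 4.54% and 2.57% of all 33185 such regions, with 261 not distinguishable from a ratio of 1 at the depth of 57 DOX nuclei.

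The named regions show the split between the classes. The region near Stc2 had 42.0 CPM in hormone-sensing luminal-like nuclei of EtOH (39.9 to 44.2) and 27.4 CPM in DOX (23.98 to 31.2), but 3.93 and 0.621 CPM in luminal progenitor-like nuclei. The region near Igfbp5 at chr1:72856310-72857320 had 39.2 CPM in luminal progenitor-like nuclei of EtOH (37.5 to 41.0) and 30.7 CPM in DOX (22.8 to 40.6), and these intervals overlap. In hormone-sensing luminal-like nuclei it had 2.38 and 0.421 CPM. The region near Car8 was led by luminal progenitor-like nuclei, with 21.5 CPM in EtOH (20.3 to 22.8) and 7.76 CPM in DOX (4.07 to 13.4), the latter from 25 counts. That near Tmprss11a was led by hormone-sensing luminal-like nuclei, with 13.8 CPM in EtOH (12.6 to 15.1) and 4.87 CPM in DOX (3.49 to 6.62). In immune-like nuclei none of these 4 regions exceeded 1.2 CPM in either library.

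**Figure D3:**
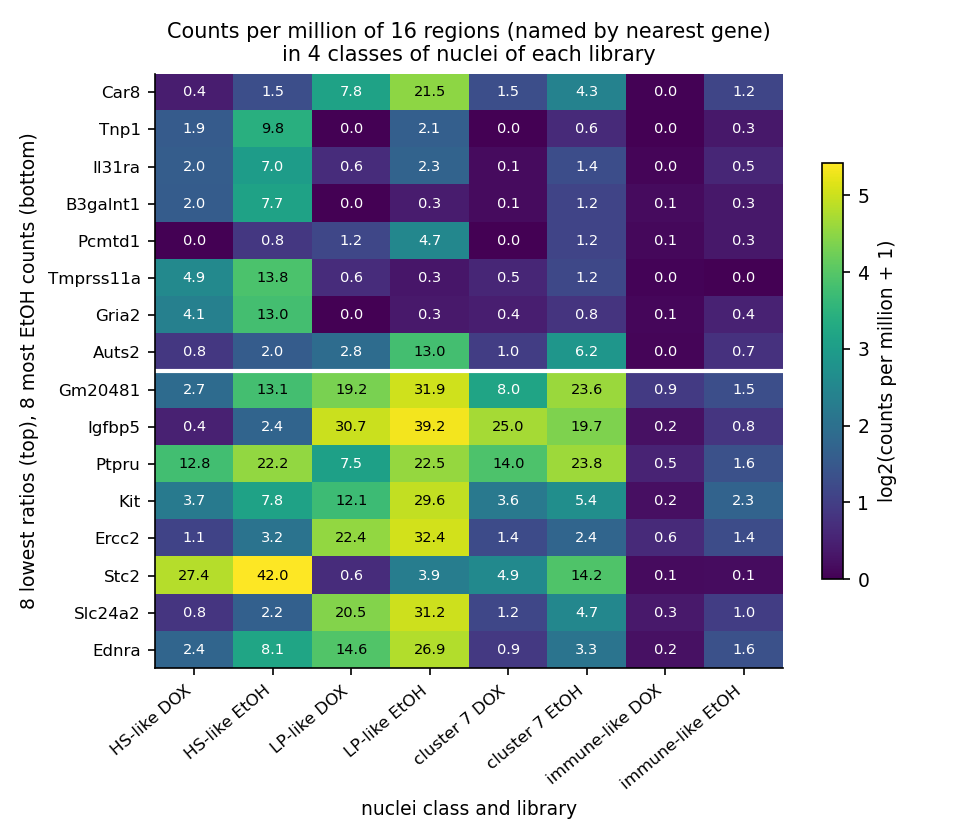
Levels in CPM of 16 regions (rows, named by the nearest gene) in 4 classes of nuclei of each library (columns). CPM are scaled to the counts of each class in each library. The colour is log2 of CPM + 1 and the number in each cell is the CPM. The 8 regions with the lowest ratio are above the white line and the 8 with the most EtOH counts below it, and the EtOH columns of hormone-sensing (HS-like) and progenitor-like (LP-like) nuclei carry the high values, up to 42.0 CPM near Stc2.

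Sequence was not used to choose the regions. A FOX word lay in the central 300 bases of 368 of the 2001 regions (18.4%, 16.7 to 20.2%) and of 5.64% of all tested regions, 3.26 times the share. This was the highest ratio of shares among 24 motifs searched on both strands. The 2001 regions were poorer in G and C (median 45.0% against 47.7%), so the tested regions were also divided into 3 groups by GC content. From low to high GC the FOX shares were 20.2%, 16.5% and 17.1% of the chosen regions and 7.55%, 5.71% and 3.82% of the tested ones. The AP-1 word was found in 26.1% (24.2 to 28.1%) against 17.5%, and the SOX word in 9.45% (8.20 to 10.8%) against 6.61%. FOX and AP-1 words stood together in 99 regions (4.95%), against 1.00% of tested regions. The word for CTCF, the factor at loop anchors, was rare, in 14 regions (0.700%, 0.383 to 1.17%) against 4.96%.

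**Figure D4:**
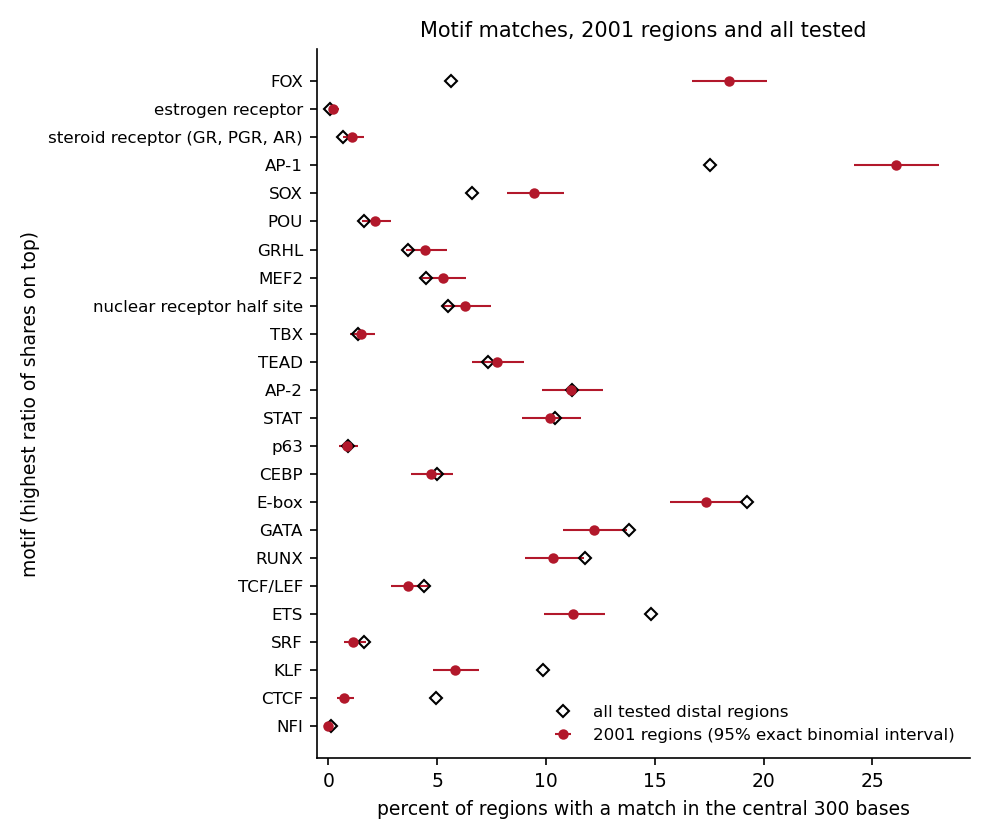
Percent of regions with a match in the central 300 bases (x axis) for 24 motifs (y axis), in the 2001 regions (red points with 95% exact binomial intervals) and in all tested distal regions (open diamonds). FOX lies at 18.4% against 5.64% and CTCF at 0.700% against 4.96%, while the GATA points lie at 12.2% and 13.8%.

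More FOX words went with a larger share of chosen regions. Of tested regions without a FOX word 1.26% were among the 2001, of those with 1 word 4.60%, and of those with 2 words 8.36% (24 of 287). The FOX words were gathered at the middle of the regions. In the 25 bases just past the midpoint there were 25.5 FOX words per 1000 of the 2001 regions and 5.22 per 1000 of the other tested regions, while near 388 bases away the values were 5.12 and 3.91. For AP-1 the values past the midpoint were 49.98 and 24.5 per 1000. In the 25 bases just before the midpoint they were 34.5 and 24.3 for AP-1, and 19.5 and 5.51 for FOX. Without a preset motif, the word of 6 bases with the highest ratio of shares among 2050 words was GTAAAC, a part of the FOX word, in 25.4% of the 2001 regions and 10.8% of those tested. Others of the first 10 were TAAACA (39.7% against 20.0%), GCAAAC (31.8% against 16.1%) and CAAACA (51.9% against 27.6%), which share letters with it, and AATATT (16.9% against 7.65%) and GTCAAC (17.4% against 8.75%).

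**Figure D5:**
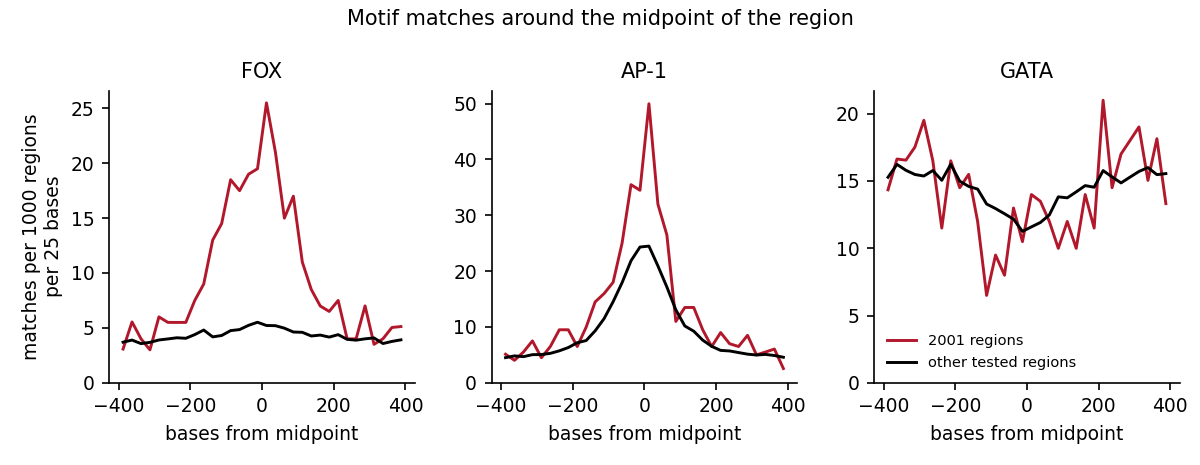
FOX, AP-1 and GATA words per 1000 regions and 25 bases (y axis) by distance from the midpoint of the region in bases (x axis), in the 2001 regions (red) and in the other tested distal regions (black). The red FOX curve rises to 25.5 just past the midpoint. The black one is at 5.22 there, a smaller rise from 3.91 near 388 bases away. AP-1 rises in both, and GATA in neither.

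The FOX share differed between the classes that open the regions. It was 20.2% (18.2 to 22.2%) in the 1562 regions led by hormone-sensing luminal-like nuclei, beside 9.86% of all tested regions led by these nuclei. In the 381 regions led by luminal progenitor-like nuclei it was 12.3% (9.21 to 16.1%) beside 4.80%. AP-1 words were frequent in the former, with 31.2% beside 27.7%, and scarce in the latter, with 4.99% beside 8.16%. ETS words, bound by factors such as ELF5, were found in 16.8% (13.2 to 20.9%) of the regions led by luminal progenitor-like nuclei, beside 13.6%. In those led by hormone-sensing luminal-like nuclei they were found in 10.2% (8.78 to 11.9%), beside 10.8%.

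Sites of the hormone receptors themselves were few. The palindrome of the estrogen receptor was matched in 4 of the 2001 regions (0.200%) against 0.067% of tested regions, and that of the receptors for glucocorticoids, progesterone and androgens in 22 (1.10%, 0.690 to 1.66%) against 0.677%. GATA words, which TRPS1 recognises, were found in 244 regions (12.2%, 10.8 to 13.7%) against 13.8%. The gap was wider at like GC content, with 16.1%, 9.95% and 5.02% against 20.1%, 13.9% and 7.93% from low to high GC. It was also wider within the classes, at 13.9% beside 17.7% in regions led by hormone-sensing luminal-like nuclei. In those led by luminal progenitor-like nuclei it was 6.30% beside 10.9%. Over all leading classes together, ETS (11.2% against 14.8%) and KLF words (5.80% against 9.86%) were less frequent than in tested regions. For ETS this did not hold within the regions led by luminal progenitor-like nuclei, as given above. The TEAD word, bound by the partners of YAP, was at 7.75% against 7.32%. The SRF box was matched in 23 regions (1.15%) against 1.64%. These are exact words, and a match is no evidence that a factor is bound.

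The 2001 regions had 1643 nearest genes of 16399 with a tested region, and 1367 of these genes had 1 region. No gene had more than 5. Dpt, the gene of the extracellular matrix protein dermatopontin, had 5 of 21 tested regions, Gnao1, encoding a G protein subunit, 5 of 31, and Kcnma1, a potassium channel gene, 5 of 50. All 5 regions near Dpt were led by hormone-sensing luminal-like nuclei, in which they summed to 69.4 CPM in EtOH and 44.4 CPM in DOX, and their ratios over all nuclei were 21.3 to 24.8%. Near Gnao1 3 of 5 were led by these nuclei. The 12 other genes among the first 15 had 4 regions each. They were Gm11639, Ica1, Angpt1, Igfbp5, Cdon, Fam174b, Psmg4, Robo1, Btbd3, Slc22a22, Phactr1 and Mast4.

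The 4 regions near Angpt1, the gene of the endothelial ligand angiopoietin 1, summed to 2.95 CPM in DOX and 15.3 CPM in EtOH and were all led by hormone-sensing luminal-like nuclei. Their lowest ratio, 14.1%, was found in an intron (chr15:42607650-42608336). The lowest region near Robo1, a guidance receptor gene, was at 14.8%, that near Ica1 at 15.3% and that near Slc22a22 at 15.5%. For Fam174b, Mast4, Psmg4, Phactr1 and Kcnma1 the lowest region was at 15.98 to 16.996%. For Btbd3, Gm11639, Gnao1, Igfbp5, Dpt and Cdon, a co-receptor gene of the hedgehog pathway, it was at 17.7 to 22.3%. The 4 regions near Igfbp5 differed in their nuclei from those near Dpt, since they summed to 52.2 CPM in luminal progenitor-like and 13.1 CPM in hormone-sensing luminal-like nuclei of EtOH.

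Of the gene lists compared, hormone receptors and luminal effectors held the largest share, with 18 of 344 tested regions (5.23%), nearest to 11 of 20 genes, beside 1.46% of all tested regions. Among the receptor genes, Nr3c2, the mineralocorticoid receptor, had 3 regions, with ratios of 23.6 to 24.6%. Prlr, the prolactin receptor, had 2, of which that in an intron (chr15:10200767-10201677) had 1.82 CPM in DOX and 9.16 CPM in EtOH. In hormone-sensing luminal-like nuclei this region had 15.3 CPM in DOX and 22.0 CPM in EtOH. Esr1, the estrogen receptor, had 1 (chr10:4599399-4600270, 0.975 and 4.54 CPM), and Pgr had 1 (chr9:8751960-8752799, 0.669 and 3.07 CPM). Fgfr2, a receptor of fibroblast growth factors, had 2, the lower in an intron at 13.3% (0.339 and 2.55 CPM). Both regions near Nr3c1, the glucocorticoid receptor, and Gata3, a luminal transcription factor, were led by luminal progenitor-like nuclei.

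Of the factors and effectors, Foxa1 had 2 regions. The lower one (chr12:57478218-57479166, in an annotated intron) had 0.965 CPM in DOX and 6.25 CPM in EtOH, at 15.5%, and the other (chr12:57511438-57512404), whose sequence with a FOX word is printed above, had 0.860 and 3.75 CPM. In hormone-sensing luminal-like nuclei the lower one had 8.84 CPM in DOX and 16.3 CPM in EtOH, and in luminal progenitor-like nuclei it had 0.488 CPM in EtOH and no count in DOX. Areg, the EGF receptor ligand through which estrogen acts on ducts, had 3 regions, at 16.5%, 22.1% and 24.1%. Ptn and Cxxc5 had 1 each. Of the 18 regions, 16 were led by hormone-sensing luminal-like nuclei. Tnfsf11 and Wnt4, the paracrine signals downstream of the progesterone receptor, had 20 tested regions each and none of the 2001. These are too few regions to be set apart from the 1.46% of all tested regions.

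Luminal progenitor genes had 8 of 284 tested regions (2.82%), and 2 of these were near Kit. The region at chr5:75459324-75460537 had 3.01 CPM in DOX and 18.6 CPM in EtOH, and the other, at chr5:75472222-75473147, had 0.607 and 4.76 CPM. Lif, a cytokine gene, also had 2, and Elf5, the alveolar ETS factor, had 1, at 24.1%. Of these 8 regions, 6 were nonetheless most open in hormone-sensing luminal-like nuclei, among them those near Lif and Elf5. Milk and alveolar genes had 0 of 104 tested regions, too few to be set apart from the 1.46% of all tested regions. Basal and myoepithelial genes had 7 of 278 (2.52%), of which 3 were near Trp63 at 18.1 to 23.9%, and 2 of these 3 were most open in hormone-sensing luminal-like nuclei.

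Epithelial transcription factors had 24 of 1139 tested regions (2.11%), 4 of them near the forkhead gene Foxp1 (19.1 to 22.7%) and 1 near the homeobox gene Msx1 (13.3%, 0.779 against 5.85 CPM). Tfap2a, the gene of an AP-2 factor, had 2. Growth factor and cytokine receptors and ligands had 23 of 885 (2.60%), among them Fzd6, a Wnt receptor gene, with 1 at 12.47%. The lists share genes, so their shares partly count the same regions. Areg, Prlr, Fgfr2 and Kit stand in this list and in those above, and Foxa1 and Elf5 also among the epithelial transcription factors. Genes of the YAP and SRF programmes had 3 of 479 (0.626%), 2 near Crim1 and 1 near Cald1, the gene of caldesmon. The study's own list of luminal mature genes had 75 of 3832 (1.96%), with Rplp1, Jun and Svil at 3 each, and its luminal progenitor list had 38 of 2997 (1.27%), with Igfbp5 at 4. Near Trps1 itself 1 of 74 tested regions was among the 2001, which is close to the 1.46% of all tested regions.

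At the promoters of the same genes the difference was smaller. Promoters were not chosen by their ratio, so a smaller difference there follows from the choice of the distal regions. Over 1362 nearest genes with regions within 1 kb of a TSS, the median promoter log2 ratio was 0.03, and 643 (47.2%) were lower in DOX. Over all 12690 such genes the median was 0.10 and 33.8% were lower. For 51 genes nearest to at least 3 of the 2001 regions the median was −0.32, with 39 lower. At Kit the promoter had 5.44 CPM in DOX and 13.0 CPM in EtOH, a log2 ratio of −1.26 (−1.40 to −1.12), and at Igfbp5 5.69 and 13.9 CPM, a log2 ratio of −1.28 (−1.43 to −1.14). At Prlr the log2 ratio was −0.56 (−0.66 to −0.46) and at Foxa1 −0.39 (−0.48 to −0.31). At Esr1 it was −0.13 (−0.24 to −0.03), and at Areg −0.05 (−0.14 to 0.05), which spans 0. Of the 1362 promoters, 2 had at most 0.25 times the EtOH level, beside 15 of all 12690.

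The 2001 regions lay farther from a TSS than other tested regions, with a median of 36.5 kb against 23.2 kb. Their width was similar (median 920 against 915 bases). Introns held 48.5%, intergenic sequence 48.4% and exons 3.05% (61 regions), against 50.4%, 45.8% and 3.78% of tested regions. The median distance to the next of the 2001 was 246 kb, and 207 (10.3%) lay within 20 kb of another. This spacing was not compared with that of other tested regions. By chromosome their share ran from 0.905% of tested regions on chromosome 11 to 2.11% on chromosome 18.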

How the data were processed

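Each library came as counts that the authors deposited, whole-number transposition events per peak and barcode. Per the file headers they were made by Cell Ranger ATAC 2.0.0, where the additional methods name another version. Peaks and cells were called in each library alone, without normalization. The build is mm10 per the submitters' processing notes, and 0 regions ended past a GRCm38 chromosome. Groups were taken from the sample labels. Only 13.8% (DOX) and 14.3% (EtOH) of values were odd, so intervals of CPM and ratios use counts divided by 2. The counts in regions with a peak of both libraries, 209248287 in DOX and 197709675 in EtOH, set the scale (CPM). For CPM in a class of nuclei, the counts of that class's nuclei in these regions set it, in each library apart. TSS are those of protein-coding transcripts of GENCODE M21.

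Nuclei were clustered by TF-IDF, singular value decomposition (components 2 to 30), 15 neighbours and Leiden at a resolution of 0.5 (scikit-learn 1.9.0, igraph 0.11.9, leidenalg 0.10.2), after leaving out the 2001 regions. A cluster was named where 1 marker list alone had a median log2 fold of at least 0.5 in gene accessibility (gene body and 2000 bases upstream), a rule set after the values were seen. Doublets were not called. Classes with under 50 EtOH nuclei led no region. Intervals are exact Poisson for CPM, exact conditional binomial for ratios and Clopper-Pearson for shares (scipy 1.17.1, Python 3.11.15). With 1 library per group no test across regions was made.

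Motifs were exact words searched on both strands in the central 300 bases of RefSeq GRCm38 sequence. The words beside FOX, AP-1 and SOX were AGATAA for GATA factors and AGGAAGT for ETS factors. TGTGGTT was searched for RUNX and CATTCCA for TEAD. STAT factors were searched by TTCNNNGAA and AP-2 by GCCNNNGGC. GRHL was searched by AACCNGTT and CEBP by TTGCNCAA. TCF/LEF factors were searched by ATCAAAG. The E-box was CAGCTG and the KLF word GGGNGTGG. Nuclear receptors were searched by AAGGTCA. POU was searched by ATGCAAAT and TBX by AGGTGTGA. NFI, CTCF, p63, MEF2, SRF and the palindromes of the steroid and estrogen receptors are given by name. SOX and FOX words can overlap. The ratio, its interval and the motif search were tested on simulated data.

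The regions named are the 8 lowest, the 8 with the most EtOH counts, 3 on each side of the threshold and the lowest of the 15 genes with the most regions, and for each gene list up to 4 genes with the most, to which other genes and the 4 longer sequences were added after the values were seen. The regions and lists were chosen with earlier results of these data known. The study's 2 luminal gene lists come from its supplementary gene sets, and 301 of 318 and 200 of 207 genes were matched. Alternatives were another scaling, count minimum, TSS set, choice of nuclei, clustering and motif window.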

Additional observations from a re-analysis of the deposited data

How the results depend on the processing

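No paired analysis was possible because neither DOX nor EtOH has more than a single library. The count of 2001 regions and their 1643 nearest genes fell to 1226 and 1078 with the median log2 ratio of tested regions set to 0, and to 1226 and 1078 with TMM factors. A count minimum of 1000 left 899 regions and 813 genes. Over nuclei outside the immune-like clusters 1010 regions and 912 genes met the rule, 525 of these regions being among the 2001 (26.2%), and of these 1010 regions 65.3% were led by hormone-sensing luminal-like nuclei and 14.1% held a FOX word. Without cluster 2, a choice added after seeing the data, 13362 regions and 6137 genes met it, with 16.3% led by hormone-sensing luminal-like nuclei and 7.21% with FOX. With each nucleus given equal weight 75.8% were led by hormone-sensing luminal-like nuclei. FOX words were found in 22.9% of the 2001 regions in the central 500 bases (8.80% of tested regions) and in 28.7% of whole regions (14.4%). The cause of these shifts was not tested, beyond the fewer regions and longer windows by construction. The other 33 values of the 4 main results stayed within 1.5 times (counts) or within the counting interval (shares). Of the ratios of single named regions, 71 moved beyond their counting interval, 167 did not and 0 rose above 1. The ratio near Car8 went to 11.2% outside the immune-like clusters and to 3.993% without cluster 2, and that near Slc24a2 to 34.3% and 6.03%. The 57 luminal progenitor-like nuclei of DOX limit the depth of their values.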

Other observations

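On chromosome X, which the rule leaves out, 20 of 3270 distal regions with the same count minimum (0.612%) had a ratio of at most 0.25.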
